A study of Macaca fascicularis with 6 samples.

Results

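Glucuronosyltransferases and glutathione transferases are the main conjugating enzymes of the liver, and 36 genes of both systems were followed here: 12 UDP-glucuronosyltransferases (UGTs), UGDH, which makes their sugar donor, 16 cytosolic or mitochondrial glutathione S-transferases (GSTs), 3 microsomal ones (MGSTs) and 4 enzymes of glutathione synthesis and recycling. Members were found by gene symbol in the probe annotation of the array. Of the 36, 29 had at least 1 probe set annotated to them alone, with 51 such probe sets among them. A further 3, UGT1A3, UGT1A4 and UGT1A9, occurred only on 7 probe sets shared by several UGT1A genes, and 4 (UGT2B7, UGT2B10, UGT2B11 and GSTA2) had no probe set by these symbols and were not analysed here. The whole array held 54675 probe sets and 19775 genes with a probe set of their own.

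UGTs sit in the endoplasmic reticulum and join glucuronic acid to bilirubin, bile acids, steroids and drugs, which makes them soluble enough for bile or urine. GSTs join the tripeptide glutathione to reactive electrophiles, and the liver depends on a steady supply of glutathione to keep them working. Many of these genes are switched on by the xenobiotic receptors PXR and CAR or by NRF2, the factor that responds to oxidative and electrophilic stress.

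Liver RNA came from 6 cynomolgus macaques (Macaca fascicularis), 1 animal on each array, 3 given vehicle and 3 a liver X receptor (LXR) ligand. LXR is a transcription factor that oxysterols bind and activate. The ligand arrays carry GW in their titles. The compound, dose, length of treatment, age and strain of the animals are not given in the sources used here. Transcripts of the macaque were read by a human array, so each gene carries a human symbol, and 21 of the 36 symbols occur in the macaque annotation T2T-MFA8v1.1.

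The signals are MAS5 intensities in arbitrary units, and their differences are given on the scale log2(signal + 16), ligand minus vehicle. SREBF1 and ABCG1, both known LXR targets, differed in the direction known for LXR activation: the log2 difference was 2.57 ± 0.39 (SE) for SREBF1 and 1.31 ± 0.25 (SE) for ABCG1, with 3 of 3 ligand arrays above every vehicle array for both. These are the values of the brightest probe sets, and on the mean of each gene's probe sets they were 0.99 and 0.82. Hepatocyte markers, 7 of 7 measured, had a summed signal of 428075 to 509045 with vehicle and 446887 to 486955 with the ligand. Singly, 3 were higher and 4 lower with the ligand, TF by the most, at a log2 difference of -0.71 ± 0.32 (SE). The groups overlapped for all 7. Macrophage markers summed to 10545 to 13859 with vehicle and 17401 to 23365 with the ligand. Endothelial markers summed to 5160 to 6293 and 6998 to 9050, and stellate cell markers to 16024 to 25572 and 31621 to 44308. The summed ranges of these 3 lists did not overlap, but bright genes weigh most in a sum. Gene by gene, the groups lay apart, higher with the ligand, for 5 of 7 macrophage, 3 of 6 endothelial and 1 of 6 stellate markers. Among all genes tested, 6.21% lay apart in this direction and 5.21% in the other. The macrophage list held 8 genes, of which 7 had a probe set. Of the stellate markers 5 were higher and COL1A1 was lower, at 1991 to 2129 with vehicle and 1549 to 1909 with the ligand. The log2 ratio of 3' to 5' actin control signals, a sign of RNA degradation, was 4.0 on ligand array 3 and 2.15 to 3.06 on the other 5, and ligand array 1 lay apart on the first principal component, at -89.8 against 0.632 to 36.8. These are pieces of tissue, in which fewer cells of a type and less RNA per cell cannot be told apart.

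Of the 36 genes, 27 passed the filter on dim probe sets (a mean signal of at least 129 over the 6 arrays). No conjugation gene was called. By limma's moderated test with Benjamini-Hochberg adjustment over all 27304 probe sets, 0 of the 27 passed at an adjusted p of 0.05, beside 0 of the 13349 genes tested (0%), and the adjusted p of the members ran from 0.873 to 0.996. At an unadjusted p under 0.05, limma gave 2 of the 27, 1 higher (GSTA1) and 1 lower (GSTM3) with the ligand, beside 6.12% of all genes in either direction (3.7% higher and 2.42% lower). The same 2 genes were the members whose groups did not overlap, against a background of 6.21% of genes with every ligand array above every vehicle array and 5.21% below. Both counts lie near the background. The log2 difference was above 0 in 16 members and below 0 in 11, with a median of 0.09 beside a median of 0.00 and 50.3% above 0 over all genes tested. The median SE of a member's difference was 0.27, and a change of that size would not have been detectable with 3 animals in each group. Far larger ones did not pass either: the limma adjusted p was 0.370 for SREBF1, at 2.57, and 0.387 for ABCG1, at 1.31.

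**Figure D1:**
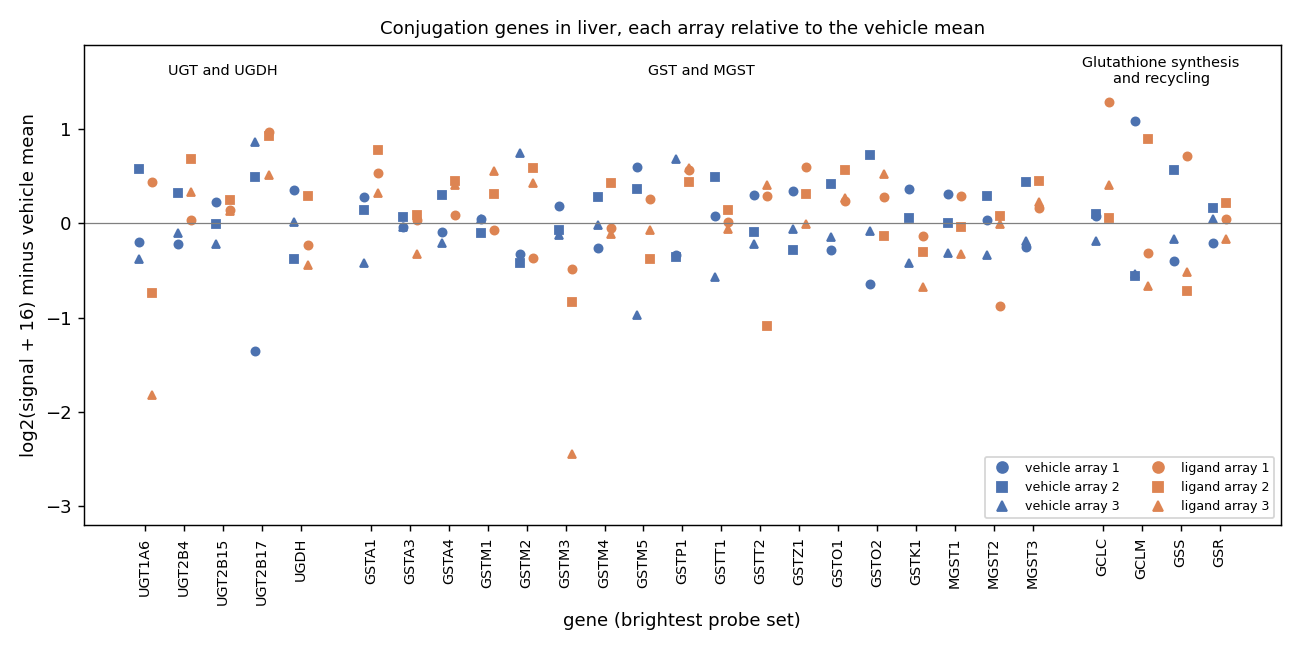
Signal of the 27 tested genes on each array, as log2(signal + 16) minus the mean of the 3 vehicle arrays, by role; blue symbols are vehicle arrays, orange symbols ligand arrays, and each symbol shape is 1 array number. Vehicle and ligand symbols overlap for every gene except GSTA1 and GSTM3; the lowest symbols are GSTM3 and UGT1A6 on ligand array 3.

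**Figure D2:**
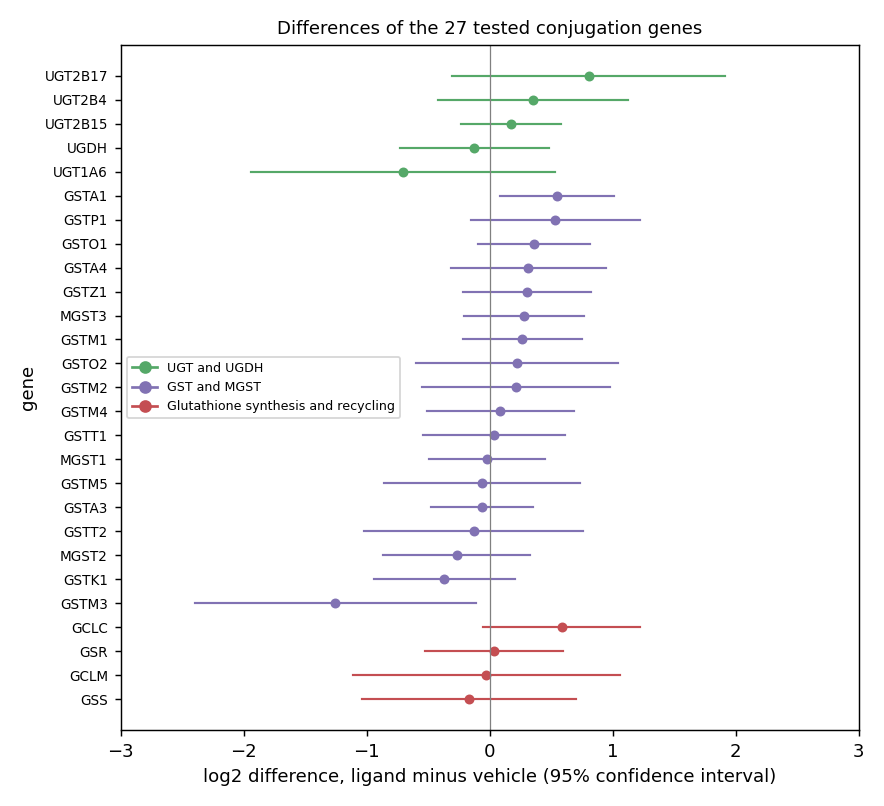
Log2 difference (ligand minus vehicle) of the 27 tested genes with its unadjusted 95% confidence interval from limma, coloured by role. The intervals of GSTA1 (0.08 to 1.01) and GSTM3 (-2.40 to -0.11) leave out 0, and those of the other 25 include it.

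Among the glucuronosyltransferases, the UGT1A enzymes come from a single locus in which separate first exons are joined to common later exons, so that most probe sets read several of them at once. The 4 UGT1A genes of the macaque annotation (UGT1A3, UGT1A6, UGT1A8 and UGT1A9) all end at the same base. UGT1A1 is the enzyme that conjugates bilirubin, UGT1A3 acts on bile acids, UGT1A4 on amines, and UGT1A6 and UGT1A9 on phenols. Of the 7 shared probe sets 6 passed the filter, and each is given here by its identifier, since none of them names 1 gene.

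One of the 6 stood lower in the ligand group. Probe set 221305_s_at, annotated to 5 genes (UGT1A1, UGT1A3, UGT1A5, UGT1A8 and UGT1A9), had signals of 6302, 4873 and 3355 on vehicle arrays 1 to 3 and of 2645, 2501 and 1208 on ligand arrays 1 to 3. All ligand arrays lay below all vehicle arrays, and the group means were 4843 ± 1474 and 2118 ± 791 (SD, n = 3 per group). On the log2 scale the difference was -1.22 ± 0.33 (SE), with a 95% interval from -1.96 to -0.49, an unadjusted limma p of 0.00398 and a limma adjusted p of 0.773. It did not pass, and it was the only one of the 6 with an unadjusted p under 0.05, beside 5.58% of all probe sets. The log2 3' to 5' actin ratio, a sign of RNA degradation, was 2.15, 2.50 and 3.06 on vehicle arrays 1 to 3. It was 2.62, 2.65 and 4.0 on ligand arrays 1 to 3. Within each group the signal was lower on every array with a higher actin ratio, though ligand arrays 1 and 2 were nearly level in it. The same ratio for the GAPDH control was 0.99, 1.32 and 1.70 with vehicle and 1.38, 1.17 and 2.05 with the ligand. By GAPDH the order held with vehicle, while ligand array 1 had a higher ratio and a higher signal than ligand array 2. Between the groups, ligand arrays 1 and 2 had lower signals than vehicle array 3 and lower ratios as well. Without ligand array 3 the difference was -0.86. Probe set 208596_s_at, given below, had the same order by actin in both groups, with a log2 difference of -0.12. The part of RNA quality in the 221305_s_at difference was not tested.

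The other 5 shared probe sets did not show a difference of this size. All of them are annotated to UGT1A4, UGT1A6 and UGT1A10, while 204532_x_at and 207126_x_at are not annotated to UGT1A3 or UGT1A5. Probe set 208596_s_at, annotated to 9 genes, had signals of 28717, 27420 and 20799 with vehicle and 29973, 25473 and 16754 with the ligand, a log2 difference of -0.12 (95% interval -0.63 to 0.40). Probe set 204532_x_at, annotated to 6 genes, had 21341, 23840 and 22008 with vehicle and 27991, 21082 and 19446 with the ligand, a log2 difference of 0.01 (95% interval -0.39 to 0.41). In both, the groups overlapped.

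Probe set 207126_x_at, annotated to the same 6 genes, had 12471, 13513 and 12900 with vehicle and 16437, 15980 and 11255 with the ligand. Probe set 206094_x_at, annotated to 9 genes, had 4729, 6026 and 5072 with vehicle and 5277, 5024 and 3802 with the ligand. Their log2 differences were 0.15 ± 0.19 and -0.17 ± 0.20 (SE), each smaller than its error. Probe set 215125_s_at, annotated to 9 genes, had 4346, 3347 and 3944 with vehicle and 2736, 3329 and 3037 with the ligand. Its groups did not overlap either, by a margin of 3347 to 3329, and its log2 difference was -0.35 ± 0.19 (SE), with an unadjusted limma p of 0.102. Among all probe sets tested, 4.96% had every ligand array below every vehicle array.

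Within each array, 221305_s_at was set against the mean of the other 5 shared probe sets on the log2 scale, a comparison chosen after its values were seen. This log2 ratio was -0.80, -1.20 and -1.62 with vehicle and -2.11, -2.10 and -2.79 with the ligand. It was 1.13 lower in the ligand group (a log2 difference of -1.13). No test was made of it, since the probe set was picked for its values. Within the vehicle group the log2 ratio was lower on each array with a higher 3' to 5' ratio, and in the ligand group it was lowest on ligand array 3. The ratio does not say which of the 5 genes the values belong to. Its reference includes 204532_x_at and 207126_x_at, which are not annotated to UGT1A3 or UGT1A5.

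**Figure D3:**
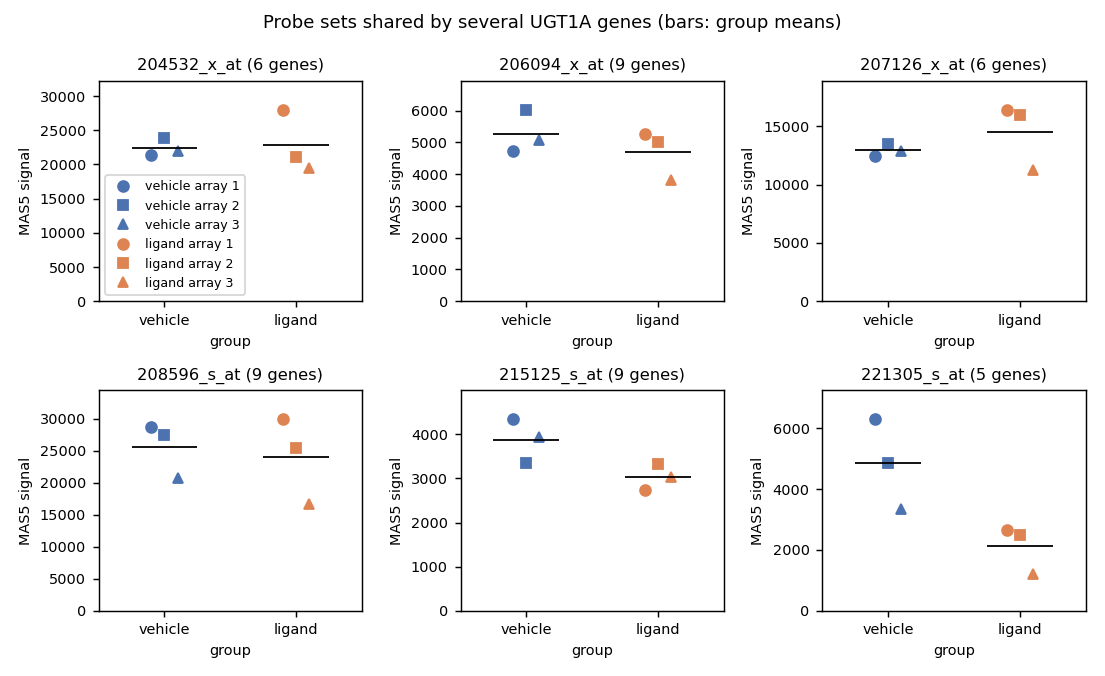
MAS5 signal of the 6 tested probe sets shared by several UGT1A genes, on linear axes that start at 0, with 1 symbol for each array and a bar at each group mean; the number of annotated genes stands beside each identifier. The groups lie apart for 221305_s_at (3355 to 6302 against 1208 to 2645) and by a narrow margin for 215125_s_at, and overlap for the other 4.

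Probe sets annotated to a single UGT1A gene were dim. UGT1A6 had signals of 249, 439 and 219 with vehicle and 398, 166 and 70.3 with the ligand. The groups overlapped, and ligand array 3 was lowest. On the log2 scale the difference was -0.71 ± 0.56 (SE), and it was -0.15 without ligand array 3, -0.42 without vehicle array 2 and -1.28 without ligand array 1. The single UGT1A1 probe set was below the filter, with 13.3, 61.9 and 102 with vehicle and 10.7, 20.5 and 26.8 with the ligand, and no test was made.

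The UGT2 enzymes conjugate steroids and bile acids. In the macaque annotation this family carries the symbols UGT2B4, UGT2B20 and UGT2B23, so that the human probe sets for UGT2B15 and UGT2B17 have no macaque gene of the same name, and which macaque transcripts they read was not tested. UGT2B17, which acts on androgens in humans, had signals of 132, 513 and 670 with vehicle and 723, 700 and 525 with the ligand. The 3 ligand arrays were alike, while vehicle array 1 was far below the other 2. Its log2 difference of 0.81 ± 0.50 (SE) was the largest positive one among the 27 members, with a limma adjusted p of 0.895, and it was 0.13 without vehicle array 1 and 1.24 without vehicle array 3.

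UGT2B15, a steroid and phenol conjugating enzyme, had 6927, 5885 and 5099 with vehicle and 6567, 7031 and 6488 with the ligand on its brightest probe set. This was one of the steadiest members, with a ratio of 1.38 between the highest and the lowest array against a median of 2.07 over all genes tested. The log2 difference was 0.18 (95% interval -0.23 to 0.58), and 2 dimmer probe sets had 0.08 and -0.13. UGT2B4, which conjugates bile acids, had 184, 277 and 201 with vehicle and 223, 360 and 279 with the ligand, a log2 difference of 0.35 ± 0.35 (SE) that was 0.19 without ligand array 2. UGT2A3 was below the filter, at 25.3 to 60.8 with vehicle and 34.6 to 80.2 with the ligand.

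UGDH, the dehydrogenase that oxidises UDP-glucose to the UDP-glucuronic acid all UGTs need, had signals of 2031, 1217 and 1598 with vehicle and 1350, 1938 and 1162 with the ligand. The groups overlapped over most of their range. Their log2 difference was -0.12 (95% interval -0.73 to 0.48), and it was 0.054 without vehicle array 1 and 0.032 without ligand array 3. Of the 5 tested genes in this role 3 were higher and 2 lower, none at an unadjusted limma p under 0.05, and their median log2 difference was 0.18.

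Of the 18 tested glutathione transferases 11 had a log2 difference above 0 and 7 below, and their median was 0.15. The symbols GSTA1, GSTA3, GSTM2, GSTM4, GSTT1 and GSTT2 do not occur in the macaque annotation. Which macaque transcripts their probe sets read was not tested. GSTA1, the major alpha-class transferase of hepatocytes, had signals of 55947, 50902 and 34304 with vehicle and 66821, 78864 and 57711 with the ligand. The 2 groups were apart, the ligand arrays being higher, although the closest values, 57711 and 55947, were near each other. The means were 47051 ± 11324 and 67799 ± 10611 (SD, n = 3 per group). This is a log2 difference of 0.55 ± 0.21 (SE), 1.46-fold on the log2(signal + 16) scale, with an unadjusted limma p of 0.0258 and a limma adjusted p of 0.873. Leaving out vehicle array 3 gave 0.33 and leaving out vehicle array 1 gave 0.69. A second, dim GSTA1 probe set had a log2 difference of 0.44 ± 0.41 (SE), with overlapping groups.

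The other alpha-class genes did not share this size. GSTA3, which takes part in steroid isomerisation, had 5099, 5470 and 5092 with vehicle and 5350, 5565 and 4170 with the ligand, a log2 difference of -0.06 (95% interval -0.48 to 0.35). It had the smallest ratio between highest and lowest array of the 27 members, 1.33. GSTA4, which detoxifies the lipid peroxidation product hydroxynonenal, had 316, 420 and 291 with vehicle and 361, 467 and 453 with the ligand, a log2 difference of 0.31 ± 0.28 (SE).

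GSTM3, a mu-class transferase, was the member with the largest log2 difference. Its brightest probe set had signals of 380, 317 and 304 with vehicle and 233, 180 and 47.7 with the ligand. All ligand arrays were below all vehicle arrays, and ligand array 3 was far below the other 2. The means were 334 ± 40.4 and 153 ± 95.2 (SD, n = 3 per group), and the log2 difference was -1.26 ± 0.51 (SE), with an unadjusted limma p of 0.0342 and a limma adjusted p of 0.873. Without ligand array 3 the difference was -0.66. As for 221305_s_at, the signal within each group was lower on every array with a higher 3' to 5' actin ratio. By the GAPDH ratio this held with vehicle only. The same actin order was seen in 208596_s_at and GSTK1, and in SLC35B1, which was higher with the ligand. Its share over all probe sets was not counted, and the part of RNA quality was not tested. The second GSTM3 probe set did not share the direction: it had 138, 182 and 123 with vehicle and 186, 97.6 and 268 with the ligand, a log2 difference of 0.21 ± 0.49 (SE), and there ligand array 3 was the highest.

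The remaining mu-class genes lay near 0. In the macaque annotation GSTM3, GSTM5 and GSTM1 follow one another with no other protein-coding gene between them. GSTM1 had a log2 difference of 0.27 ± 0.22 (SE), GSTM2 0.22 ± 0.34, GSTM4 0.09 ± 0.27 and GSTM5 -0.06 ± 0.36, all with overlapping groups. GSTM5 spread widely within the vehicle group, from 10703 to 31775, and its difference was -0.55 when vehicle array 3 was left out and 0.24 when vehicle array 1 was. Mu-class genes are close in sequence, and 3 of the 5 were read by probe sets whose suffix (_x_at) marks probes that can match other genes as well. Their values are therefore uncertain as to gene. GSTM3 and GSTM5 were read by _s_at sets, and whether those match 1 gene only was not tested. Over all tested members 5 were read by an _x_at set, UGT2B15 and MGST1 among them.

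GSTP1, the pi-class transferase, is low in hepatocytes and is found in bile duct cells and in several non-parenchymal cells. Its signals were 501, 496 and 1038 with vehicle and 955, 869 and 971 with the ligand. The 3 ligand arrays were close to each other, 2 vehicle arrays were lower and vehicle array 3 was the highest of all 6. GSTP1 had a log2 difference of 0.53 ± 0.31 (SE), with a limma adjusted p of 0.895, and it was 0.88 without vehicle array 3. Beside it, 7 of 7 tested macrophage markers and 6 of 6 endothelial markers were higher with the ligand, against 50.3% of all genes tested. The groups overlapped for the macrophage markers CD14 and VSIG4 and for the endothelial markers PECAM1, STAB2 and KDR. Of 4 tested bile duct markers 2 were higher and 2 lower, and their summed signal, over the 6 of 7 listed that had a probe set, was 1035 to 1654 with vehicle and 785 to 2295 with the ligand. KRT19, a defining bile duct marker, was dim at 13.6 to 55.8 over all arrays and, like CFTR, below the filter. The part of these cell types in the GSTP1 values was not tested.

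GSTO1, an omega-class enzyme with reductase activity, had 26943, 43955 and 29642 with vehicle and 38695, 48437 and 39604 with the ligand. Vehicle array 2 lay among the ligand arrays, and the log2 difference was 0.36 ± 0.21 (SE), with 0.29 ± 0.39 on a second probe set. It was 0.22 without vehicle array 1 and 0.57 without vehicle array 2. The 2 theta-class genes, GSTT1 and GSTT2, had log2 differences of 0.03 and -0.13. GSTZ1, which also works in tyrosine breakdown as maleylacetoacetate isomerase, had 0.30 ± 0.23 (SE), GSTO2 0.22 ± 0.37 and GSTK1, the mitochondrial and peroxisomal kappa-class enzyme, -0.37 ± 0.26. None of these 6 genes had an unadjusted limma p under 0.05.

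MGST1, an abundant microsomal transferase of the liver that also reduces lipid peroxides, had nearly the same values in both groups on its brightest probe set. The signals were 47546, 38612 and 30848 with vehicle and 46914, 37528 and 30679 with the ligand. In each group they fell in the order in which the 3' to 5' actin ratio rose, and by the GAPDH ratio with vehicle only. MGST1 had a log2 difference of -0.02 (95% interval -0.49 to 0.45). Its other 3 tested probe sets were also below 0, at -0.51 ± 0.31, -0.10 ± 0.23 and -0.87 ± 0.50 (SE). MGST2 and MGST3, which belong to the same family of membrane proteins as leukotriene C4 synthase, had -0.27 ± 0.27 and 0.28 ± 0.22 (SE), and the MGST2 value was 0.04 without ligand array 1, its lowest array.

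**Figure D4:**
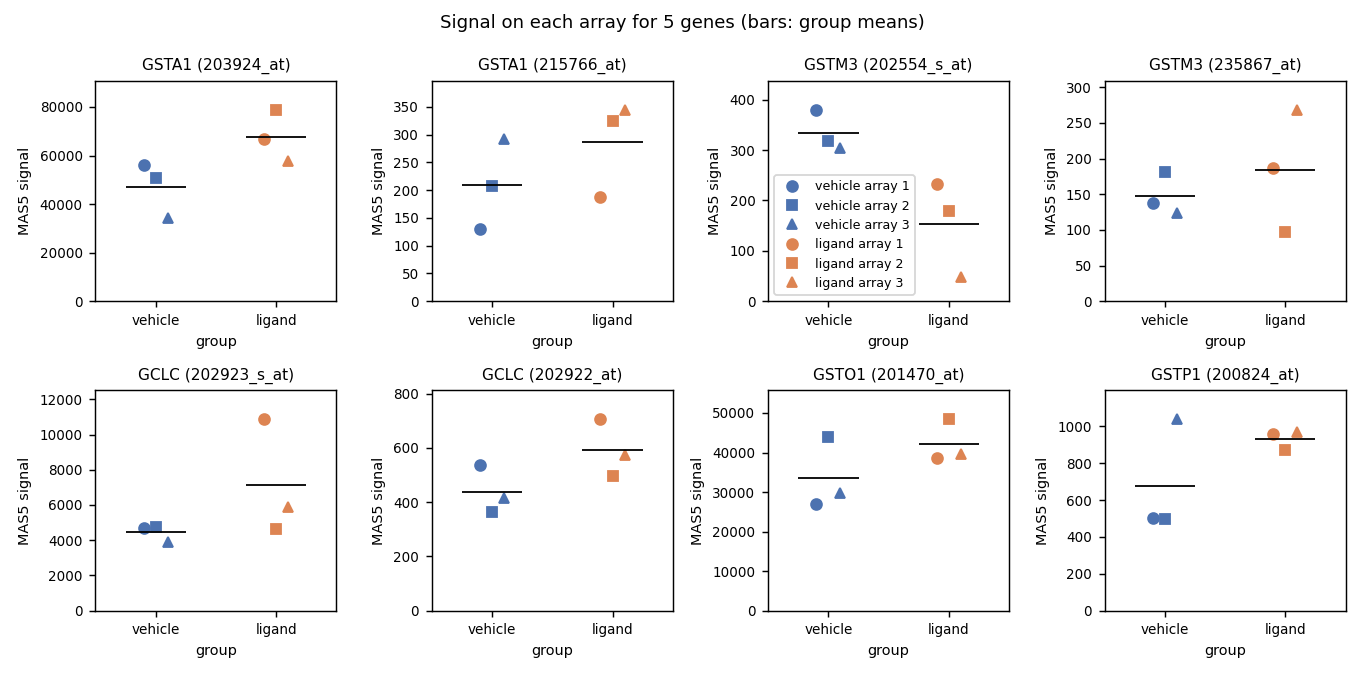
MAS5 signal on each array for GSTA1, GSTM3 and GCLC (2 probe sets each), GSTO1 and GSTP1, on linear axes that start at 0, with a bar at each group mean. The 2 GSTM3 probe sets differ in direction, and the GCLC mean of the ligand group on 202923_s_at is raised by ligand array 1, at 10873.

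Glutathione is made in 2 steps, by glutamate-cysteine ligase (catalytic subunit GCLC, modifier subunit GCLM) and glutathione synthetase (GSS), and glutathione reductase (GSR) returns its oxidised form. GCLC had signals of 4700, 4764 and 3915 with vehicle and 10873, 4621 and 5911 with the ligand. Ligand array 1 was about as high as the other 2 ligand arrays together, and ligand array 2 lay within the vehicle range. The log2 difference was 0.59 ± 0.29 (SE), with an unadjusted limma p of 0.0691 and a limma adjusted p of 0.880, and it was 0.23 without ligand array 1. A second GCLC probe set had 538, 365 and 414 with vehicle and 705, 496 and 574 with the ligand, a log2 difference of 0.42 ± 0.27 (SE).

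GCLM did not move with GCLC across the animals. It was high on vehicle array 1 at 4407 and on ligand array 2 at 3854, and stood at 1399 and 1421 on the other vehicle arrays and 1653 and 1296 on the other ligand arrays. The log2 difference was -0.03 ± 0.49 (SE), with a 95% interval from -1.11 to 1.06. GSS had 979, 1929 and 1156 with vehicle and 2149, 785 and 906 with the ligand, a log2 difference of -0.17 ± 0.39 (SE), and 1 array in each group was well above the other 2. GSR was even over all arrays, at 492, 644 and 590 with vehicle and 594, 668 and 509 with the ligand, a log2 difference of 0.04 (95% interval -0.52 to 0.59).

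The range over all arrays, which takes in group differences as well as the spread between animals, was about as large for these genes as for others. The median ratio of the highest to the lowest array was 2.09 over the 27 members and 2.07 over all genes tested, and it ran from 1.33 for GSTA3 to 7.96 for GSTM3, followed by UGT1A6 at 6.24 and UGT2B17 at 5.50. The extreme values were spread over the arrays, unevenly: ligand array 2 held the highest value for 9 of the 27 genes (33.3%, against 14.1% of all genes), and the lowest values fell on vehicle array 1 and ligand array 3 for 7 each. The sign of the difference stayed the same on leaving out each array in turn for 15 of the 27 genes, 12 higher and 3 lower (UGT1A6, GSTM3 and GSTK1). For 26 of the 27, all but GSTA4, leaving out at least 1 array moved the log2 difference by over 1.5 times or turned its sign. Of 13 members with several tested probe sets, the sets had 1 sign in 9 and different signs in 4 (UGT2B15, GSTM3, MGST3 and GCLM).

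The genes around these enzymes were taken from a list of 48 that are no members, of which 41 were tested. No gene of that list passed limma with adjustment over the whole array, with adjusted p from 0.710 to 0.993 over the 41. An unadjusted limma p under 0.05 was found for 7 (5 higher and 2 lower), beside 6.12% of all genes tested (3.7% higher and 2.42% lower). The list was chosen with earlier results of these data known, so the count was not tested against that share. The median log2 difference was 0.11, with 22 genes above 0 and 19 below. Of the NRF2 targets 14 of 16 were tested, with 9 higher and 5 lower, a median log2 difference of 0.21, and 4 with an unadjusted limma p under 0.05, all higher, beside 3.7% of all genes.

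NQO1, a quinone reductase used as a readout of NRF2, had signals of 1058, 1359 and 1041 with vehicle and 1713, 2692 and 2291 with the ligand. All ligand arrays were above all vehicle arrays on this probe set and on a second one. The log2 difference was 0.93 ± 0.24 (SE), with an unadjusted limma p of 0.00295 and a limma adjusted p of 0.710, and the second probe set had 0.60 ± 0.26 (SE). SRXN1, which repairs oxidised peroxiredoxins, had 197, 303 and 161 with vehicle and 397, 450 and 485 with the ligand, again with no overlap. Its log2 difference was 1.0 ± 0.32 (SE), with a limma adjusted p of 0.829. ME1, the cytosolic malic enzyme, which supplies NADPH for fatty acid synthesis as well, had 288, 265 and 56.3 with vehicle and 352, 507 and 486 with the ligand. Its log2 difference of 1.32 ± 0.52 (SE) was 0.65 without vehicle array 3.

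HMOX1, the haem oxygenase, is also abundant in macrophages, whose markers were higher in the ligand group. It had 2573, 1114 and 4593 with vehicle and 5350, 3568 and 5086 with the ligand, with overlapping groups and a log2 difference of 0.95 ± 0.42 (SE), which leaving out vehicle array 2 brought to 0.42. The summed macrophage markers had the same order as HMOX1 among the vehicle arrays. In the ligand group their sum was highest on ligand array 2, where HMOX1 was lowest of that group. The part of the macrophage markers in the HMOX1 difference was not tested. Of the other 10 tested targets 5 were above 0, with log2 differences of 0.59 for AKR1B10 and 0.48 for CBR1, both carbonyl reductases, 0.31 for SLC7A11, 0.12 for AKR1C1 and 0.11 for FTL. The remaining 5 were below 0: TXNRD1, the cytosolic thioredoxin reductase, had -0.06, EPHX1, the microsomal epoxide hydrolase, -0.03, and the pentose phosphate enzymes PGD, TALDO1 and TKT -0.15, -0.18 and -0.12. None of these 10 had an unadjusted limma p under 0.05. NFE2L2, which encodes NRF2 itself, had 13751, 10141 and 10816 with vehicle and 11313, 11533 and 10057 with the ligand, a log2 difference of -0.07 (95% interval -0.47 to 0.33). The NRF2 targets GCLC and GCLM, given above, had 0.59 and -0.03.

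Of the controllers of these genes, 8 of 11 were tested, 5 higher and 3 lower. NR1I3, which encodes the receptor CAR, had 2374, 1862 and 1333 with vehicle and 2018, 2157 and 2327 with the ligand, a log2 difference of 0.26 ± 0.24 (SE) that was 0.04 once vehicle array 3 was left out and 0.45 once vehicle array 1 was. NR1I2, which encodes PXR, was not analysed here. CEBPA, a factor of hepatocyte genes, had 22342, 12581 and 16381 with vehicle and 12618, 10917 and 10107 with the ligand, a log2 difference of -0.57 ± 0.22 (SE). The groups met at 12581 and 12618, its limma adjusted p was 0.873, and it was -0.36 without vehicle array 1.

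Of 6 tested genes listed for the supply and transport of UDP-glucuronic acid and for the reversal of glucuronidation, 3 were higher and 3 lower. They were UGP2, PGM1, UXS1, SLC35D1, SLC35B1 and GUSB. Whether SLC35B1 carries UDP-glucuronic acid was not tested. SLC35B1, a nucleotide transporter of the endoplasmic reticulum, had 3493, 3140 and 2804 with vehicle and 6484, 4887 and 4274 with the ligand. The groups did not overlap, and the log2 difference was 0.71 ± 0.21 (SE), with an unadjusted limma p of 0.00711 and a limma adjusted p of 0.829. SLC35D1, which carries UDP-glucuronic acid into the endoplasmic reticulum, had -0.17, and GUSB, the lysosomal glucuronidase that splits glucuronides again, -0.11.

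In glutathione precursors, turnover and export 6 of 14 tested genes were higher and 8 lower, of 16 listed. CTH, which releases cysteine from cystathionine, had 11089, 3721 and 6105 with vehicle and 2528, 4280 and 2181 with the ligand. Vehicle array 1 was the highest by far and vehicle array 2 lay within the ligand range. CTH had a log2 difference of -1.13 ± 0.38 (SE), with a limma adjusted p of 0.829, and -0.73 without vehicle array 1. On a second CTH probe set the groups did not overlap, with 3774, 3133 and 3859 against 1636, 2495 and 2405 and a log2 difference of -0.73 ± 0.22 (SE). The canalicular exporter of conjugates, ABCC2, had -0.11 ± 0.21 (SE), while ABCC3, its counterpart on the blood side, had 0.71 ± 0.43 (SE) on its brightest probe set and 0.18 ± 0.44 and -0.70 ± 0.63 on 2 others.

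**Figure D5:**
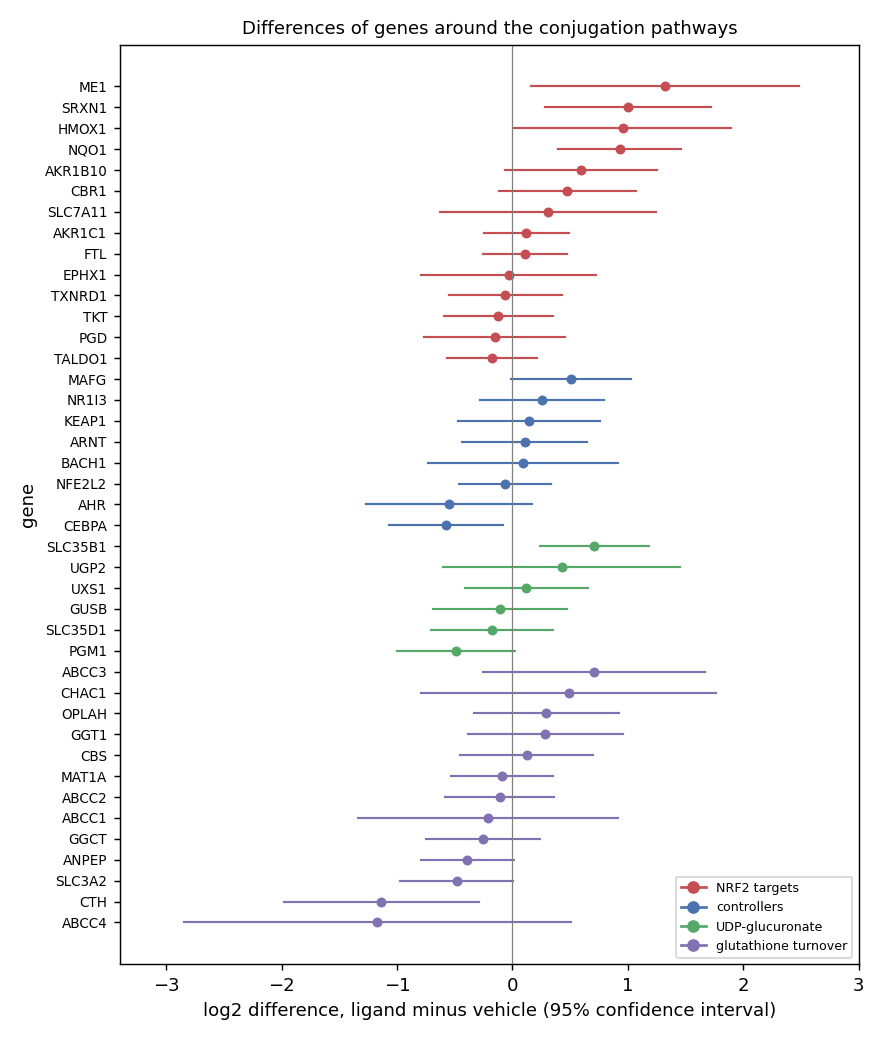
Log2 difference (ligand minus vehicle) of the 41 tested genes around the conjugation pathways with its unadjusted 95% confidence interval from limma, coloured by list; SLC7A11 stands in 2 lists and is drawn once. The intervals of ME1, SRXN1, HMOX1, NQO1 and SLC35B1 lie above 0 and those of CEBPA and CTH below 0, and no gene passed after adjustment over all probe sets.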

How the data were processed

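Liver RNA of 6 animals had been hybridised to 1 array each. The deposited values are MAS5 intensity signals on a linear scale, per the submitters' processing notes, with version, scaling target and filters not given in the sources used here; the 2% trimmed mean was 500.1 on every array. Values were transformed to log2(signal + 16) and not rescaled. After 62 control probe sets were left out, 27304 with a mean signal of at least 129 (the median of all means) were tested, two-sided, in limma 3.58.1 (R 4.3.3; lmFit, then eBayes with trend), Benjamini-Hochberg adjusted, threshold 0.05. For each gene the brightest probe set with 1 symbol was taken. The test was checked on simulated data. Figures used Python 3.11.15 and matplotlib 3.10.9.

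The members and lists were chosen with earlier results of these data known. Named genes were, in each role, the 4 of smallest p and the 3 brightest, all tested shared probe sets, 6 pathway genes of smallest p, and NFE2L2, NR1I2, NR1I3, NQO1 and HMOX1; other members are summarised. Fold changes understate the change of dim probe sets, detection calls were not used, and sequences were not used here. Alternatives were other pseudocounts, scalings, filters, variance models, weights and probe set rules, and leaving out each array. Same-numbered arrays were not paired: their deviations from the group means correlated at 0.04, -0.03 and 0.07 across probe sets.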

Additional observations from a re-analysis of the deposited data

How the results depend on the processing

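Under every alternative run, 0 member genes and 0 genes of the surrounding pathways passed in limma, with the smallest adjusted p of a member between 0.689 and 0.942. On leaving out each array the number of probe sets called over the whole array ran from 0 to 1: 1 without vehicle array 2 (ACAA2) and 1 without ligand array 2 (SREBF1). Across the alternatives 1 to 3 members had an unadjusted limma p under 0.05 and 14 to 21 were above 0; the median log2 difference of the members ran from 0.03, with the shared probe sets, to 0.16, without vehicle array 2. The replicate block, whose numbers were not shown to pair the animals, gave 0 members called and 3 with an unadjusted limma p under 0.05, and 1707 probe sets against 1523.

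The sign turned for GSR with median centring (-0.0076), for GCLM with array weights (0.052) and on the mean of its probe sets (0.11), and for 204532_x_at with median centring (-0.032) and array weights (-0.0079); the cause was not tested. On leaving out each array, the log2 difference ran from -0.33 to 0.054 for UGDH, -0.18 to 0.13 for MGST1, -0.61 to 0.11 for GSS, -0.069 to 0.14 for GSR, -0.49 to 0.52 for GCLM, -0.16 to 0.064 for NFE2L2, -0.14 to 0.12 for 204532_x_at and -0.30 to 0.12 for 208596_s_at. Median centring moved the median of all probe sets by -0.04 and left 14 of 27 members above 0. With 3 arrays a group, the number of animals limits every value, and dim probe sets cannot be told from absent transcripts.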
